A study of Mus musculus with 58 samples.

Results

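The effect of the middle dose of BaA (benz(a)anthracene, one of the polycyclic aromatic hydrocarbons) was compared between the lung and the liver of the same mice, with weight on genes that moved up in one organ and down in the other. The effect is the difference between the D2 group (40 mg/kg-bw/day) and the D0 group (vehicle, 0 mg/kg-bw/day), and the comparison is the lung difference minus the liver difference. It used the 20 lung and liver arrays titled D0 and D2, 5 mice in each of 4 groups, out of 58 arrays in the series. All were Muta™Mouse males, a transgenic line carrying a bacterial reporter for scoring mutations, about 10 weeks old. They received olive oil with or without BaA by oral gavage on 28 days, and the organs were taken 72 h after the last dose. Mice 1 to 5 formed D0 and mice 11 to 15 formed D2, and each mouse gave both organs. Each array set the RNA of 1 organ (Cy5 dye) against one universal mouse reference RNA (Cy3 dye), so that every level below is a log2 ratio of tissue to reference. RNA came from a slice of the right lung lobe or the left liver lobe with all its cell types, and in such bulk samples fewer cells of a type and less RNA per cell cannot be told apart.

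BaA is converted in the body into reactive metabolites that bind DNA, and both organs carry enzymes for this conversion. Many of the genes described below act inside the nucleus on RNA. Neat1 is a long RNA that stays in the nucleus and builds paraspeckles, bodies that hold RNA and RNA-binding proteins. CLK kinases and the L-type cyclins act on SR proteins and on the splicing machinery, and U1 and U2 are the small RNAs by which the spliceosome recognises an intron.

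The organs were as labelled. Averaged over 9 measured lung epithelium genes (surfactant proteins and others), the mean log2 ratio was 5.92 to 6.32 in lung and -0.16 to 0.00 in liver. Averaged over 10 hepatocyte genes, it was 6.72 to 7.41 in liver and -0.02 to 0.42 in lung. Between 42.8% and 53.2% of the probes were well above background on a lung array and between 32.8% and 44.6% on a liver array. Replicate arrays of a group correlated with r of 0.938 to 0.989. Single lung arrays stood apart in markers of neighbouring tissue, with a fat list at 5.43 in D2 mouse 14 (others 1.28 to 2.51) and a skeletal muscle list at 5.17 in D0 mouse 5 (others -0.45 to -0.12). The liver of D0 mouse 5 stood apart in many of the genes below. Values without it are given for Neat1, for Rnu1b6 and for the counts of calls.

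A probe was tested if it was well above background on at least 4 of the 10 arrays of each organ, which 20247 of 55681 probes met. It was called where limma gave a p of 0.05 or less after Benjamini-Hochberg adjustment and the difference reached 1.5-fold. The effect of the dose differed between lung and liver for 393 probes, 1.94% of those tested. Of these, 311 (1.54%) moved higher in lung relative to liver and 82 (0.405%) moved lower. Opposite signs in the 2 organs were found for 382 of the 393 (1.89% of the probes tested). Of these, 305 (1.51%) were higher in lung and lower in liver, and 77 (0.38%) were lower in lung and higher in liver. A difference between effects favours opposite signs by its construction, so that share is a description. Over all probes tested 54.7% had opposite signs, 24.9% in the first direction and 29.8% in the second. The 382 probes matched 233 genes with a symbol, 198 in the first direction and 35 in the second. Of the 305 probes 266, and of the 77 probes 75, were well above background on at least 3 of 5 arrays in each group. The rest were seen less often in some group, so their differences are uncertain.

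Among the 305 probes the median change was 0.44 in lung (0.04 to 1.28) and -0.45 in liver (-2.37 to -0.03). Among the 77 it was -0.33 in lung (-1.25 to -0.13) and 0.38 in liver (0.02 to 1.46). Within a single organ fewer probes passed. In lung 61 rose (0.301%) and 30 fell (0.148%), 0.449% of the probes tested. In liver 11 rose (0.0543%) and 142 fell (0.701%), 0.756% of those tested. These counts share 1 estimate of the spread over both organs. With each organ in a fit of its own, 102 probes were called in lung but only 5 in liver, and 0 in both, so that every call within liver below is a call of the joint fit. Only 19 of the 382 probes were called in both organs (0.0938%), while 72 were called in liver alone, 32 in lung alone, and 259 in neither, the difference between organs passing where the 2 changes did not. The ranges of D2 and D0 mice lay apart in lung for 174 of the 305 probes and in liver for 83, where 5.64% and 2.92% of all probes tested had ranges apart. They lay apart in both organs and in opposite directions for 38 of the 305 (0.217% of all probes in that direction) and for 1 of the 77 (0.0198%). These arrays chose the probes, so the counts are a description.

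2 limits apply to these counts. Without the liver of D0 mouse 5 alone, 633 probes were called with opposite signs, 478 and 155 in the 2 directions, and 43 were called in both organs. Leaving out 1 mouse at a time gave 225 (without D2 mouse 13) to 572 (without D0 mouse 5). Arrays were also centred on the median of all their gene spots in place of the LOWESS curve. The median change of the 20247 probes tested was then 0.48 in lung and -0.19 in liver. Their median difference between the organs was 0.68. The probes tested are those with signal in both organs, so this is not a shift of all spots. The share of calls that were higher in lung then went from 79.1% to 99.6%.

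**Figure D1:**
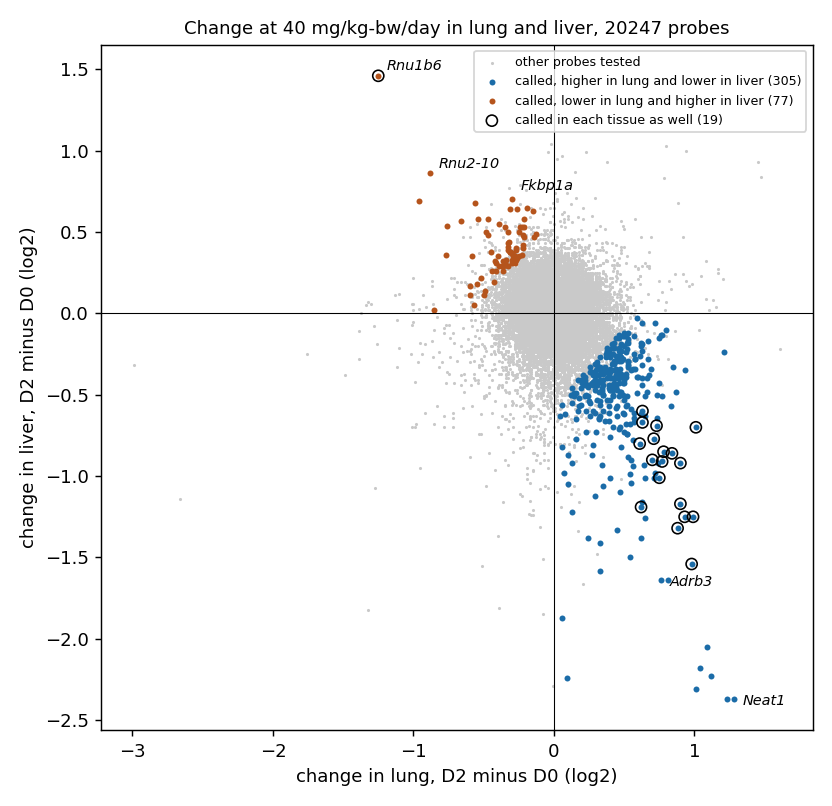
Each point is 1 of the 20247 probes tested. The x axis is its change in lung and the y axis its change in liver, both D2 minus D0 on a log2 scale. The 305 blue points lie at the lower right and reach 1.28 in lung and -2.37 in liver at Neat1, the 77 orange points lie at the upper left, and the 19 ringed points were called in each organ as well.

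Neat1 had the widest gap between the organs. In lung its log2 ratio was -1.38, -1.74, -1.75, -1.60 and -1.48 in the D0 mice and -0.30, -0.54, -0.55, -0.33 and 0.16 in the D2 mice. In liver it was 0.67, -1.40, 0.36, -0.49 and -2.39 at D0 and -2.92, -3.19, -3.09, -3.01 and -2.89 at D2. The groups did not overlap in either organ, and the liver controls spread over a wide range that mouse 5 closed at its low end. The lung mean went from -1.59 ± 0.16 (SD, n = 5) to -0.31 ± 0.29, a change of 1.28 on the log2 scale (limma adjusted p = 0.089, not called). The liver mean went from -0.65 ± 1.26 to -3.02 ± 0.12, a change of -2.37, or 5.17-fold lower (adjusted p = 0.00266). With each organ fitted alone it was the lung change that passed (adjusted p = 0.0019) and the liver change that did not (adjusted p = 0.0693). The lung change minus the liver change was 3.65 (SE 0.53, limma adjusted p = 0.000764). Without the liver of mouse 5 it was 4.08, and the lung change then passed the test in the same fit (adjusted p = 0.0116). A set of 5 further probes that the array labels NEAT1 gave 3.14 to 3.6, with lung changes of 1.01 to 1.23 and liver changes of -2.37 to -2.05, and all 5 were called. The 3 probes labelled NEAT2, the array's name for Malat1, gave 0.61 to 0.90, of which 2 were called.

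Other nuclear-retained long RNAs were taken as a list. This list was chosen with earlier results of these data known, so its share of calls is a description. Of its 9 members 6 were tested, and 4 of the 6 were called, against 1.87% of the 11069 genes tested. Besides Neat1, these were Meg3, Malat1 and Kcnq1ot1. Meg3, an imprinted long RNA, differed by 1.74 (adjusted p = 0.0121), with 0.83 ± 0.86 at D0 and -0.58 ± 0.13 at D2 in liver and a lung change of 0.33. Its probe was well above background on 4 of 5 D0 and 1 of 5 D2 liver arrays, so it was tested through the group where it is high, and its difference is uncertain. Malat1, a resident of nuclear speckles, differed by 0.70 (adjusted p = 0.00791), with a lung mean of -2.84 ± 0.15 at D0 and -2.38 ± 0.14 at D2. Kcnq1ot1, which silences neighbouring imprinted genes, went the other way, lower in lung by 0.44 and higher in liver by 0.26 (adjusted p of the difference = 0.0462). Among annotated probes, 10 of 93 for long non-coding RNAs were called (10.8%, 9 of them higher in lung), against 1.69% of 13795 for protein-coding genes.

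A list of genes for CLK kinases, L-type cyclins and related nuclear RNA processors was taken next. It too was chosen with earlier results of these data known, so its share of calls is a description. All 24 members were tested, and 10 were called, each higher in lung relative to liver (41.7%, beside 1.87% of all genes). Their median change was 0.18 in lung and -0.29 in liver, where all genes had medians of 0.02 and 0.01. Within lung 3 members rose and within liver 4 fell, where 32 of the 11069 genes tested rose in lung and 71 fell in liver. The count called in the difference was 7 to 21 under the alternatives. Of the 24, 17 had opposite signs, 16 of them higher in lung. Averaged over the 24 genes, the log2 ratio per mouse was -0.21 to -0.11 at D0 and -0.09 to 0.29 at D2 in lung, without overlap. In liver it was -0.62 to -0.18 at D0 and -0.79 to -0.65 at D2, again without overlap, the lowest control being mouse 5.

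Among these genes Clk1, a kinase that phosphorylates SR splicing factors, passed in both organs. In lung it was -0.05, -0.51, -0.34, -0.30 and -0.14 at D0 and 0.08, 0.30, 0.45, 0.26 and 0.73 at D2. In liver it was -0.05, 0.15, 0.43, 0.41 and -0.24 at D0 and -0.63, -0.52, -0.29, -0.27 and -0.58 at D2. Neither organ showed overlap. The changes were 0.63 (adjusted p = 0.0221) and -0.60 (adjusted p = 0.0278), and they differed by 1.23 (SE 0.19, limma adjusted p = 0.0013). Clk4, a kinase of the same family, changed by 0.75 in lung (adjusted p = 0.00652) and by -0.43 in liver (adjusted p = 0.0983). Ccnl2, an L-type cyclin, fell in liver by 1.38 (adjusted p = 0.00315) and changed by 0.62 in lung (adjusted p = 0.171).

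Ddx5 and Ddx17 are RNA helicases of one family. Ddx5 rose in lung from 0.52 ± 0.08 to 1.18 ± 0.14 (adjusted p = 0.00234) and went from -0.42 ± 0.09 to -0.91 ± 0.25 in liver, a change with an adjusted p of 0.0147 that stayed under 1.5-fold. Ddx17 fell in liver by 1.22 (adjusted p = 0.00266) with 0.13 in lung (adjusted p = 0.785). Pnisr, an SR-like nuclear protein, differed by 1.72 (adjusted p = 0.00357). Members such as Luc7l, Luc7l2, Prpf4b and Srek1 did not pass, with differences of 0.17, -0.03, -0.17 and 0.06. Of 10 SR splicing factors tested only Srsf5 was called, going from -1.31 ± 0.16 to -0.10 ± 0.29 in lung (adjusted p = 0.00153) and from -1.19 ± 0.28 to -1.43 ± 0.39 in liver (adjusted p = 0.541).

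**Figure D2:**
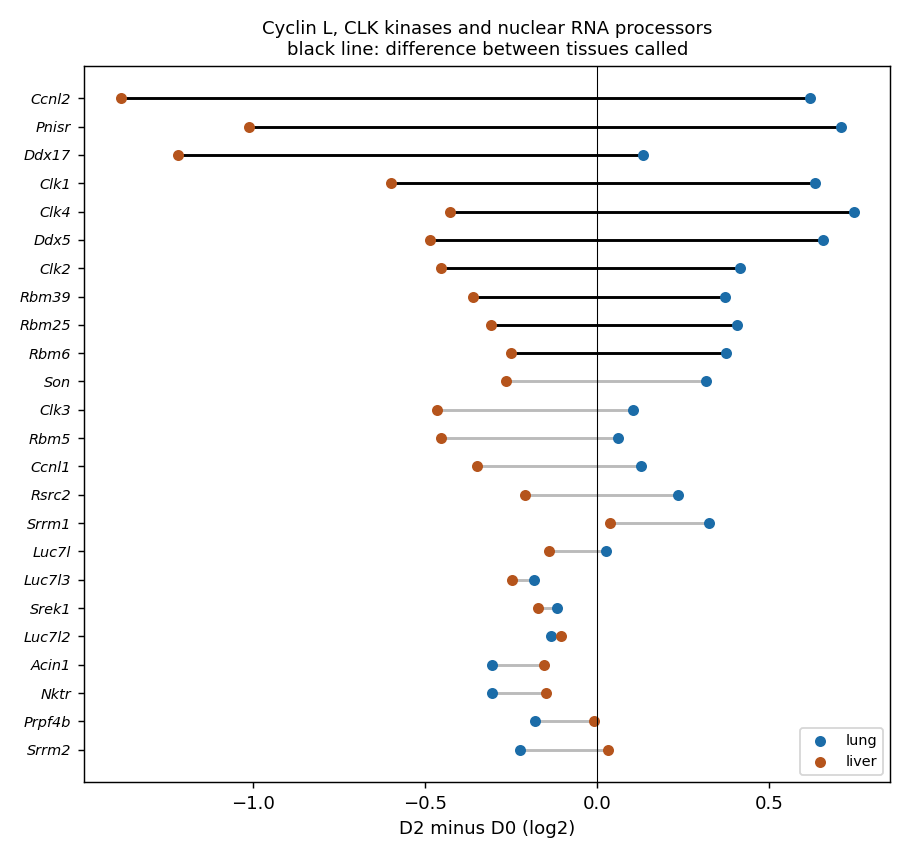
Each row is 1 of 24 genes for cyclin L, CLK kinases and nuclear RNA processors, with the change in lung (blue) and in liver (orange) on the x axis, D2 minus D0 on a log2 scale. Black lines mark the 10 genes whose difference between organs was called, and in each of them the blue point lies to the right of the orange one.

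8 genes with a symbol passed the joint test in both organs with a rise in lung and a fall in liver: Clk1, Lime1, Igflr1, Mapk8ip3, Rbm33, Clec2d, Crebzf and Pde9a. With each organ fitted alone, all 8 passed in lung (limma adjusted p = 0.00828 to 0.0348) and 0 in liver (adjusted p = 0.0501 to 0.134). Lime1 encodes a transmembrane adaptor of lymphocyte signalling. In lung it read -1.96, -2.20, -1.96, -2.03 and -1.84 at D0 and -0.92, -1.52, -1.37, -0.99 and -0.69 at D2. In liver it read -0.81, -0.98, -0.76, -0.78 and -1.68 at D0 and -1.97, -1.88, -1.92, -1.94 and -1.91 at D2. The organs thus changed places, liver being the higher in D0 and lung the higher in D2. Lime1 rose by 0.90 in lung (adjusted p = 0.00691) and fell by 0.92 in liver (adjusted p = 0.00479), a difference of 1.82 (SE 0.22, limma adjusted p = 0.000226). A second Lime1 probe passed in both organs too (0.73 and -0.69).

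Igflr1, a receptor for IGF-like family members, read -0.89, -1.06, -1.33, -0.96 and -0.85 in the lungs of D0 and -0.14, -0.40, -0.53, -0.24 and 0.42 in those of D2. In liver it read -0.11, 0.13, -0.31, 0.11 and -0.90 at D0 and -1.10, -1.27, -0.96, -1.12 and -0.91 at D2, where mouse 5 lay next to the D2 range. It rose by 0.84 in lung and fell by 0.86 in liver (limma adjusted p = 0.0206 and 0.0163). Clec2d, a C-type lectin, rose from 1.74 ± 0.27 to 2.75 ± 0.26 in lung (adjusted p = 0.00153) and fell from 3.03 ± 0.22 to 2.33 ± 0.19 in liver (adjusted p = 0.014). Here mouse 5 lay within the other controls, at 2.83 with 2.83 to 3.31 in the others.

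Mapk8ip3, a scaffold protein for JNK signalling and axonal transport, changed by 0.77 in lung and by -0.91 in liver. Rbm33, an RNA-binding protein, changed by 0.70 and -0.90, and Crebzf, a bZIP transcription factor, by 0.61 and -0.80. Pde9a, a phosphodiesterase specific for cyclic GMP, changed by 0.63 and -0.67. The differences between organs had limma adjusted p-values of 0.000797 for Mapk8ip3, 0.000253 for Rbm33, 0.000292 for Crebzf and 0.0024 for Pde9a. For 3 of these genes a second probe did not pass, with differences of 0.36 for Mapk8ip3, 0.42 for Crebzf and -0.27 for Rbm33, where the sign turned. On the scanner's own processed signals the difference for Pde9a did not pass (adjusted p = 0.236).

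For the 9 genes called in both organs, the 250 bases before the start are shown where the RefSeq promoter table held them. It held such a stretch for 6 of the 9. Each runs 5′ to 3′ toward the start site on the strand of the gene, in GRCm38.p6. Capitals mark matches to CCAAT (or ATTGG on the other strand) and to GCGTG (or CACGC), the core of the site that the AhR binds, the receptor for aromatic hydrocarbons. Their places are chr2:181380985-181381234 (+) for Lime1, chr7:30565177-30565426 (+) for Igflr1, chr17:24936978-24937227 (-) for Mapk8ip3, chr5:28316939-28317188 (+) for Rbm33, chr6:129180365-129180614 (+) for Clec2d and chr7:90442531-90442780 (+) for Crebzf.
Lime1: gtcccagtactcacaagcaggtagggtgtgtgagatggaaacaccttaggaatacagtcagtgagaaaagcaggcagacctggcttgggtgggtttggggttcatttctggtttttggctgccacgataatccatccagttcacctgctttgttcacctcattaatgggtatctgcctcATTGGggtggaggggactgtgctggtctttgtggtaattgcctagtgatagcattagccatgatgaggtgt
Igflr1: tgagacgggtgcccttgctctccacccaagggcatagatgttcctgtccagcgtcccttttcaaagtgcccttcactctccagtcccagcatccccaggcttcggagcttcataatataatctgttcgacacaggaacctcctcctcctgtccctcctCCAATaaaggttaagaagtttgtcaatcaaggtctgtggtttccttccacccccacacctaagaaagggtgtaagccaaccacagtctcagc
Mapk8ip3: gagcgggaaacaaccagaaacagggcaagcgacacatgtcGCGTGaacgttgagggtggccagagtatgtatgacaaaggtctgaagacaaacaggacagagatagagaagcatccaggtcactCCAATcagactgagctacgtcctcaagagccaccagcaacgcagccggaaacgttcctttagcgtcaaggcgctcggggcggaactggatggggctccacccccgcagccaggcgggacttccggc
Rbm33: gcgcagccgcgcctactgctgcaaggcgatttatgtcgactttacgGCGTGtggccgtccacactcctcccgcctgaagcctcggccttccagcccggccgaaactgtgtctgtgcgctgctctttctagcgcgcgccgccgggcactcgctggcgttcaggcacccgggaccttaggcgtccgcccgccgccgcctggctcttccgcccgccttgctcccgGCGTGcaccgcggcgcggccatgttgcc
Clec2d: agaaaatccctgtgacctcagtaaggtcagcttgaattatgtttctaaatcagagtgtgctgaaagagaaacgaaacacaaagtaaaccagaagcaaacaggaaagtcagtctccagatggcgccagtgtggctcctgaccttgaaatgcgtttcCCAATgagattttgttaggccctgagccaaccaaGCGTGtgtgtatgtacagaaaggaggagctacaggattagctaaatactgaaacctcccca
Crebzf: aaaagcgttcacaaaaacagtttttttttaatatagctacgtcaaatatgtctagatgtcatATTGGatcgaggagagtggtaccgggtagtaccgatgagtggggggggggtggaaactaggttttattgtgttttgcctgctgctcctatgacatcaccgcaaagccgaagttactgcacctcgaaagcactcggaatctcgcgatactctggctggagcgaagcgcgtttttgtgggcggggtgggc

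CCAAT stood in 5 of these 6 windows and in 34.5% of all 27025 promoters of the table. Over the genes higher in lung and lower in liver it stood in 61 of the 161 with a promoter (37.9%), close to the 36.4% of all genes tested. GCGTG was found in 37.3% of the 161, in 45.2% of the genes tested and in 28.2% of all promoters. The heat shock element (GAANNTTC or TTCNNGAA) was found in 4.35% of the 161, beside 10.1% of the genes tested. The E-box CACGTG was found in 7.45% (8.68% of those tested), the D-box TTATGTAA or TTACGTAA in 2.48% (0.735%), TGACGTCA in 2.48% (2.76%) and TATAAA in 5.59% (6.65%). Of the 35 genes in the opposite direction 27 had a promoter, and CCAAT was in 14 of them (51.9%), GCGTG in 10 (37.0%), CACGTG in 5 (18.5%), the heat shock element and TATAAA in 1 each (3.7%), and the D-box and TGACGTCA in 0. Both strands were searched, and GCGTG can overlap CACGTG. These shares describe letters and were not tested.

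The other genes named for this direction, by the size of the smaller of both changes, were Adrb3, Slc15a2, Pnisr, Fam193b, Lgals4 and Kifc2. Adrb3, the beta-3 adrenergic receptor, read 3.67, 3.96, 4.25, 4.25 and 2.13 in the livers of D0 and 1.93, 1.91, 1.89, 1.89 and 2.45 in those of D2, so that mouse 5 alone met the D2 range. It fell in liver by 1.64 (limma adjusted p = 0.0111) and changed by 0.76 in lung (adjusted p = 0.245), and a second probe gave a difference of 1.62 (adjusted p = 0.0397). In lung Adrb3 read 3.1 in mouse 14, the array with the high fat markers, and 1.45 to 2.46 in the other D2 mice. The part of fat in this was not tested. Without mouse 14 in both organs the difference was 2.14 (adjusted p = 0.0221). On the processed signals it was not (adjusted p = 0.0787). Slc15a2, a peptide transporter, fell in liver by 0.98 (adjusted p = 0.0171) and changed by 0.72 in lung (adjusted p = 0.0807), and it too was not called on the processed signals (adjusted p = 0.0919).

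Lgals4, a galectin of epithelia, fell in liver by 0.93 (adjusted p = 0.0427) and changed by 0.64 in lung, and its 2 further probes gave differences of 1.49 and 1.31, both called. Its call was lost in the fit of all 58 arrays (adjusted p = 0.358). Fam193b fell in liver by 1.01 (adjusted p = 0.00866), from -0.27, -0.38, -0.35, -0.22 and -1.53 to -1.67, -1.51, -1.47, -1.52 and -1.63. Kifc2, a kinesin, passed in the difference alone (1.29, adjusted p = 0.00497). Of the 15 named genes of this direction, 14 had lung ranges that did not overlap and 8 had liver ranges that did not. Over all probes tested these shares were 5.64% in lung and 2.92% in liver, in either direction. Arrays were run on 3 slides per organ, each with both groups. For 14 of the 15 the change kept its sign on each of the 6 slides, the exception being Adrb3 on 1 lung slide, where 5.26% of all probes tested were higher in lung and lower in liver on each slide. The same arrays chose these genes, so this describes them and adds no support.

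**Figure D3:**
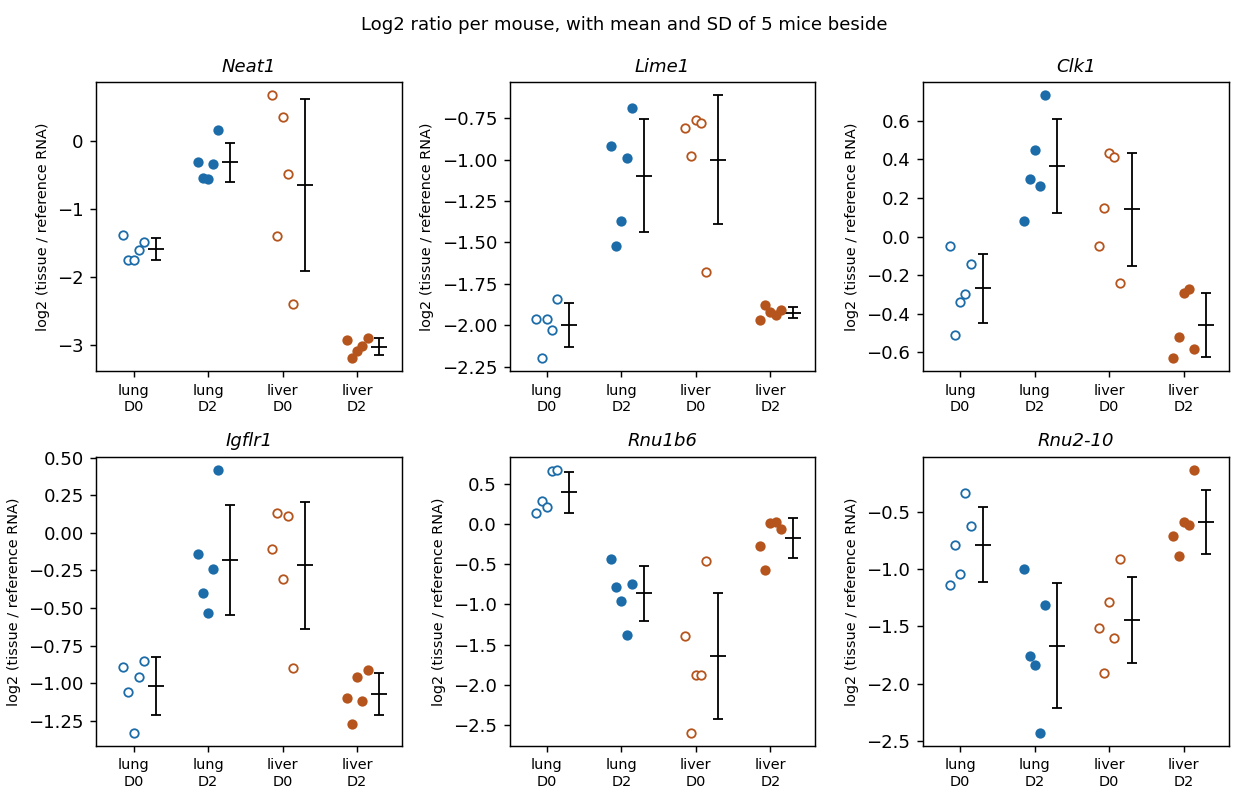
Each point is the log2 ratio of tissue to reference RNA in 1 mouse, for 6 genes in the lung (blue) and liver (orange) of D0 (open) and D2 (filled), with the mean and SD of 5 mice beside. In the first 4 genes D2 lies above D0 in lung and below it in liver, and in Rnu1b6 and Rnu2-10 the means lie the other way. In liver the D0 mouse nearest to the D2 group is mouse 5.

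In the opposite direction, lower in lung and higher in liver, the leading genes were small RNAs of the spliceosome. Rnu1b6, a U1 gene, read 0.13, 0.28, 0.21, 0.66 and 0.67 in the lungs of D0 and -0.44, -0.78, -0.96, -1.38 and -0.75 in those of D2. In liver it read -1.39, -2.59, -1.87, -1.88 and -0.46 at D0 and -0.28, -0.57, 0.01, 0.02 and -0.06 at D2, with mouse 5 inside the D2 range. It fell by 1.25 in lung (adjusted p = 0.0206) and rose by 1.46 in liver (adjusted p = 0.00804), a difference of -2.72 (SE 0.38, limma adjusted p = 0.000551), and it was the only gene of this direction called in both organs in the joint fit. Fitted alone, lung passed (adjusted p = 0.00476) and liver did not (adjusted p = 0.0764). Without the liver of mouse 5 the difference was -3.01. Rnu2-10, a U2 gene, changed by -0.88 in lung and by 0.86 in liver (adjusted p = 0.0519 and 0.0573), a difference of -1.75 (adjusted p = 0.0046). U1 and U2 genes have near-identical copies, which a probe cannot tell apart.

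The snRNA, snoRNA, rRNA and the RNA parts of RNase MRP and RNase P numbered 10 among the RNAs tested, U1 and U2 included. Of these 10, 4 were called, each lower in lung relative to liver. Of all genes 1.87% were called either way. This grouping was made after the values of its leading members were seen, so its share is a description. Besides the U1 and U2 genes the 4 were Rmrp, the RNA of RNase MRP (-0.84, adjusted p = 0.0436), and Snora74a, a snoRNA that guides pseudouridine formation (-0.98, adjusted p = 0.00206). The call for Rmrp held under 13 of 27 alternatives. Snora74a went from -1.81 ± 0.27 to -2.28 ± 0.21 in lung and from -1.26 ± 0.14 to -0.76 ± 0.08 in liver, where its probe was well above background on 1 of 5 D0 and 4 of 5 D2 arrays, so it was tested through the group where it is high and its difference is uncertain. Rn28s1, the 28S ribosomal RNA, lay just under the fold threshold (-0.58, adjusted p = 0.0449). Rnu12, Rnu7 and Rpph1 did not pass, with differences of -0.42, -0.17 and -0.33. Rnu3b1 varied widely between mice (1.51 ± 1.74 at D0 and -1.48 ± 1.52 at D2 in lung) and did not pass either.

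The named protein-coding genes of this direction had smaller differences than the U1 and U2 genes. Azin1, an inhibitor of antizyme that keeps polyamine synthesis active, read 0.21, 0.34, 0.88, 0.77 and 0.30 in lung at D0 and 0.44, -0.21, -0.10, -0.20 and 0.20 at D2, with overlap. In liver it read -0.61, -0.78, -0.85, -0.56 and -0.46 at D0 and -0.10, -0.18, 0.12, -0.16 and -0.02 at D2, without overlap. The difference was -1.06 (SE 0.20, adjusted p = 0.00489), while its 2 further probes gave -0.31 and -0.33 and did not pass. Trib1, a pseudokinase that directs protein degradation, differed by -0.75 (adjusted p = 0.00612), Tle3, a transcriptional corepressor, by -0.76 (adjusted p = 0.0124) and Rbm14, a paraspeckle protein, by -0.64 (adjusted p = 0.00721). Second probes of Trib1 and Rbm14 gave -0.42 (adjusted p = 0.103) and -0.51 (adjusted p = 0.0383, under 1.5-fold) and were not called.

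Xbp1 (a transcription factor of the unfolded protein response, -0.67), Serpinf1 (pigment epithelium-derived factor, -0.68), Synm (an intermediate filament protein, -0.69), Foxl2 (a forkhead transcription factor, -0.69) and Fkbp1a (a prolyl isomerase, -1) passed with limma adjusted p-values of 0.0387 to 0.0488. With the mouse as a block, Xbp1, Serpinf1, Foxl2 and Fkbp1a lost the call (adjusted p = 0.0696, 0.0689, 0.0614 and 0.0566), and with the slide as a block Foxl2 lost it (adjusted p = 0.0714). Second probes of Fkbp1a, Foxl2 and Serpinf1 gave -0.06, 0.17 and -0.11. Of the 12 named genes in this direction 10 kept their sign on each of 6 slides (5.53% of all probes did so in this direction), again on the arrays that chose them. Under median centring only Rnu1b6 was still called (-1.91, adjusted p = 0.0486), and 7 of the 12 turned to a positive difference. Relative to the median difference of 0.68 over the probes tested, the 12 lay at -2.59 to -0.44 there. The 15 genes higher in lung lay at 0.79 to 3.83 and were all called.

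**Figure D4:**
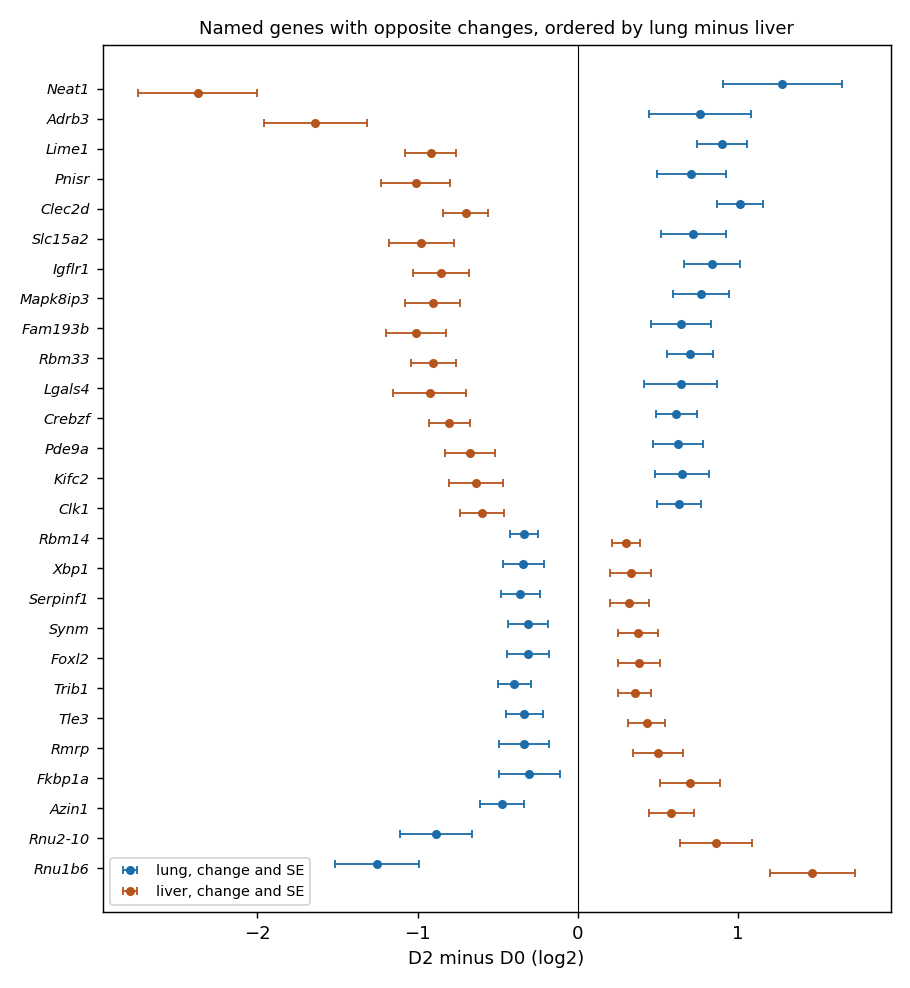
The x axis is the change, D2 minus D0 on a log2 scale, in lung (blue) and in liver (orange), with bars for 1 SE of the limma fit. The 27 named genes with opposite signs are ordered by the lung change minus the liver change, from Neat1 (3.65) at the top to Rnu1b6 (-2.72) at the bottom.

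Probes without a gene symbol, which the array names by an interval of the mm9 genome, held part of both directions. Of 2489 such probes tested 68 were called (2.73%), beside 1.94% of all probes and 1.79% of those with a gene symbol. The array has several probes per interval, so they share a source. In chr17:39960567-39992817, 8 of 20 probes tested were called, all lower in lung (-0.39 to -0.21) and higher in liver (0.29 to 0.55). In chr5:123582742-123588202, 4 of 7 were called in the other direction, with 0.62 to 0.98 in lung and -1.54 to -1.16 in liver, and in chr13:48620882-48643532 3 of 9 (0.78 to 0.99 in lung, -1.25 to -0.85 in liver). The chr13 probe at -0.85 was well above background on 5 of 5 D0 but 1 of 5 D2 liver arrays. It was tested through the group where it is high, so its difference is uncertain. On chromosome 6, the interval chr6:129151512-129208737 had 4 of 9 called, with 0.49 to 0.68 in lung and -1.5 to -0.28 in liver.

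Called genes whose changes had the same sign were few, 11 of the 393 probes and 3 genes. Cd79b, a subunit of the B cell receptor, rose in lung by 1.08 (adjusted p = 0.000748) with 0.32 in liver (adjusted p = 0.268). The mean of 9 B cell genes was 1.11 to 1.46 in D0 lungs and 1.67 to 2.15 in D2 lungs, and -0.61 to -0.40 in all livers. The number of B cells was not measured. Epor, the erythropoietin receptor, rose in lung by 0.79 (adjusted p = 0.00353) with 0.02 in liver, and Tbx3, a T-box transcription factor, rose in liver by 0.97 (adjusted p = 0.00466) with 0.06 in lung. With the mouse as a block the differences for Epor and Tbx3 did not pass (adjusted p = 0.068 and 0.0531).

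Of 16 gene lists on cell responses, 10 held no called difference between the organs. Of 19 heat shock chaperones, which refold damaged proteins, 0 were called in the difference. Within lung 5 fell and within liver 1, where 15 and 71 of the 11069 genes tested fell. Opposite signs were found for 4 of the 19, none of them called. Hspa1a went from 2.55 ± 0.83 to -0.11 ± 0.23 in lung (adjusted p = 0.000738) and from 1.19 ± 0.63 to 0.04 ± 0.26 in liver (adjusted p = 0.0714), and the difference had an adjusted p of 0.0696. Other normalizations and designs gave 0 to 5 calls in this list. Of 17 interferon-stimulated genes, part of the antiviral response, 2 fell in each organ, beside the same counts over all genes. Their medians were -0.50 in lung and -0.61 in liver, with 0 differences called.

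In the lists closest to the exposure, Ahr was the 1 called among 7 tested genes of the AhR battery, where 1.87% of all genes were called, a share to read beside each count that follows. Ahr changed by 0.33 in lung (adjusted p = 0.108) and by -0.33 in liver (adjusted p = 0.112), a difference of 0.66 (adjusted p = 0.0156). Among 20 p53 targets it was Ddb2, a sensor of damaged DNA, with 0.48 in lung (adjusted p = 0.0551), -0.37 in liver (adjusted p = 0.145) and a difference of 0.85 (adjusted p = 0.0105). Cdkn1a, the cell cycle inhibitor, fell in lung by 0.70 (adjusted p = 0.0404), with 0.10 in liver, and the difference did not pass (adjusted p = 0.0758). Of 14 immediate early genes Fosb was called (-0.63, adjusted p = 0.0473).

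The lists with 0 of their tested genes called were, besides the chaperones and interferon genes, clock output genes (10 tested), clock genes of opposite phase (4), cold-inducible RNA-binding proteins (2), cholesterol synthesis and uptake (15), PPAR-alpha targets (11), CAR and PXR targets (5), proliferation genes (13) and glucocorticoid-responsive genes with metallothioneins (10). Among these Cirbp, a cold-inducible RNA-binding protein, rose in lung by 0.82 (adjusted p = 0.0237) with 0.20 in liver, and the difference did not pass (adjusted p = 0.198). Of 12 lists of cell type markers only the B cell list held a call. The filter asked for signal in both organs, so few of their genes were tested. They numbered 0 for skeletal muscle, 1 for lung epithelium and 2 each for hepatocyte, bile duct, neutrophil, fat and smooth muscle. For B cells and heart muscle 3 were tested, and for T cells, macrophages and red blood cells 4 each. Such counts cannot show whether the cell types of an organ changed.

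The low and high dose groups, D1 at 20 and D3 at 80 mg/kg-bw/day, were on arrays of other mice, so the difference D3 minus D1 could be set beside these results. It differed between lung and liver for 8 probes (0.0395% of those tested), 7 positive (0.0346%) and 1 negative (0.00494%). Among the 305 probes higher in lung and lower in liver, the difference between organs was positive for 286 (93.8%, where 50.0% of all probes were positive), and 5 were called. The 2 organs contributed unequally. In lung D3 exceeded D1 for 295 of the 305, with a median of 0.49, where 48.4% of all probes did. There 104 were called higher (0.78% of all probes tested, and 1.14% were called either way). In liver the median was 0.10 and D3 exceeded D1 for 223 (50.7% of all probes), with 1 called higher (0.109%) and 0 lower (0.168%). Among the 77 probes of the other direction 47 were negative and 30 positive, and 0 were called.

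The named genes showed the same. Of the 15 higher in lung and lower in liver, all 15 had a higher lung level at D3 than at D1 (0.45 to 1.78), 13 of them called, and 2 had a lower liver level (-0.28 to 0.78 over the 15). For Neat1 the lung change from D1 to D3 was 1.78 (adjusted p = 0.00283) and the liver change 0.08 (adjusted p = 0.942). Its liver level was -0.65 ± 1.26 at D0, -2.84 ± 0.16 at D1, -3.02 ± 0.12 at D2 and -2.75 ± 0.24 at D3 (n = 4 at D3 and 5 otherwise), so that D1 already stood with the higher doses. Its lung level was -1.59 ± 0.16, -1.73 ± 0.27, -0.31 ± 0.29 and 0.05 ± 0.97, with D0 and D1 on one side and D2 and D3 on the other.

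Rnu1b6 moved the other way in both organs from D0 to D2, but its mean liver level at D3 went back toward D0. Its liver level was -1.64 ± 0.78 at D0, -0.49 ± 0.45 at D1, -0.17 ± 0.25 at D2 and -0.85 ± 0.37 at D3, and its lung level was 0.39 ± 0.26, 0.10 ± 0.28, -0.86 ± 0.35 and -0.99 ± 0.68. In lung it fell from D1 to D3 by 1.09 (adjusted p = 0.0289). Averaged over the 305 probes, the liver of D0 mouse 5 stood at -0.16, within the -0.23 to -0.13 of the D1 livers, while the other D0 livers stood at 0.34 to 0.42. The lung of the same mouse stood at -0.46, next to the other D0 lungs (-0.45 to -0.32).

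In forestomach, a tissue that the choice of probes did not use, 0 of the 20247 probes were called at D2 against D0 in limma (597 at an unadjusted p under 0.05), and 124 of the 305 and 24 of the 77 probes had a positive change, beside 46.1% of all probes. The 15 named genes higher in lung changed there by -0.53 to 0.68. The reference channel (Cy3) gave 0 calls among the 382 probes under the same comparison. For Rnu1b6, however, the Cy3 difference was 0.59 (limma adjusted p = 0.0876), and for Rnu2-10 it was 0.23 (adjusted p = 0.94). A higher reference signal lowers the log2 ratio, the direction reported for both genes. Its part in their differences was not tested.

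**Figure D5:**
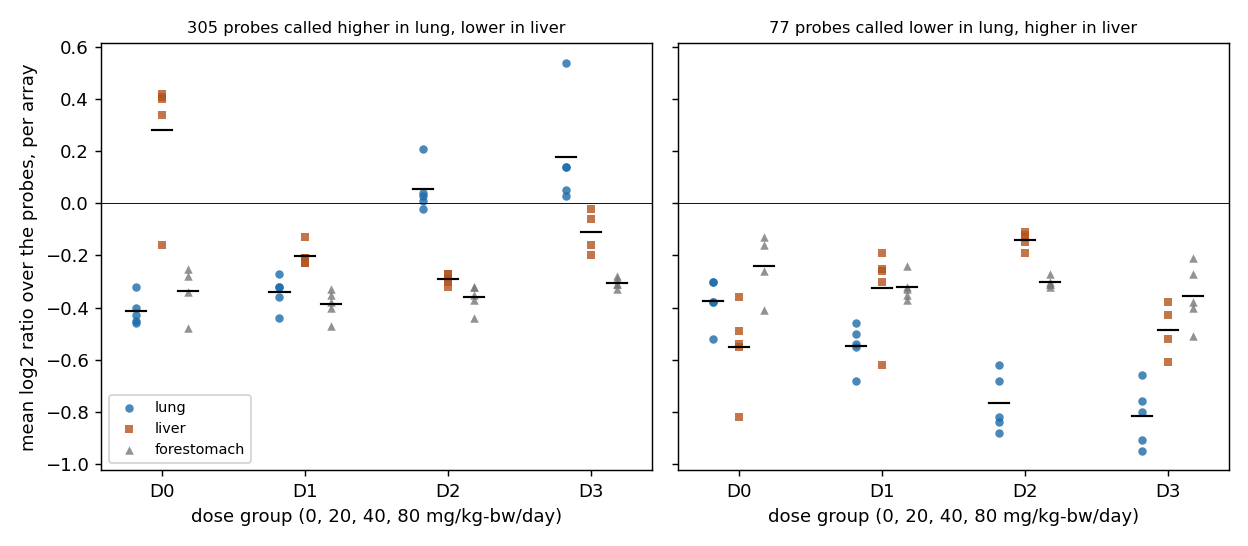
Each point is the mean log2 ratio on 1 array over the 305 probes (left) and the 77 probes (right), by dose group on the x axis, for lung, liver and forestomach, with black bars for group means. On the left the lungs of D2 and D3 lie above those of D0 and D1, while 4 of 5 D0 livers (0.34 to 0.42) lie above the livers of all other groups. The D0 and D2 points of lung and liver are those that chose the probes.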

How the data were processed

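The authors deposited scanner intensity values per spot (Feature Extraction 10.7.3.1 per the file headers, linear scale, 62976 spots per array) and a table of log2 ratios (Cy5 over Cy3) that the authors had normalised by LOWESS from median signals without background correction. The deposited log2 table was used here. Its lung and liver columns of D0 and D2 had medians of -0.0445 to -0.0222 and correlated with ratios recomputed by loess from the intensities with r of 0.996 to 0.998. No dyes were swapped, so a dye bias of a probe is shared by all groups. Symbols came from a RefSeq table of GRCm38.p6 by accession (26413 of 55681 probes, 20018 symbols), and spots of one probe were averaged (432 probes).

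The study used MAANOVA, which was not at hand, so limma 3.58.1 in R 4.3.3 was fitted to 4 groups of 5 arrays, with the study's thresholds (adjusted p 0.05, fold 1.5) and no block. The number of arrays limits the precision. Same-numbered lung and liver arrays came from the same mouse per the labels, and their deviations correlated with r of 0.048 to 0.199 in D0 and -0.046 to 0.200 in D2. For mice 1, 13 and 14 the best match with another mouse was higher (0.052, 0.129 and 0.156, against 0.048, -0.046 and 0.052). The pairing therefore rests on the labels. Fits with the mouse as a fixed or random block, the slide as a block, other normalizations, filters and sample sets were alternatives. Genes were named where well above background on 3 of 5 arrays of each group, as the 12 highest per direction by the smaller of both changes, all called in both organs and the 4 largest of same sign (3 existed). A list used 1 probe per gene, the brightest. Members and lists were chosen with earlier results of these data known. The fit was also run on simulated data with independent normal noise and 1 spread per probe for all groups. That setting leaves out unequal spreads between groups and single deviant arrays, so it does not cover these features of the data. No value of the authors' own comparisons was used.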

Additional observations from a re-analysis of the deposited data

Results flagged for a closer look

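The difference between the lung and liver effect of D2 passed the test for 393 probes, and the named genes are given here because their effect differed between the organs. Higher in lung and lower in liver were Neat1 (3.65), Adrb3 (2.40), Lime1 (1.82), Pnisr (1.72), Clec2d (1.71), Slc15a2 (1.70), Igflr1 (1.69), Mapk8ip3 (1.67), Fam193b (1.66), Rbm33 (1.6), Lgals4 (1.57), Crebzf (1.42), Pde9a (1.30), Kifc2 (1.29) and Clk1 (1.23), as log2 lung change minus liver change. Lower in lung and higher in liver were Rnu1b6 (-2.72), Rnu2-10 (-1.75), Azin1 (-1.06), Fkbp1a (-1), Rmrp (-0.84), Tle3 (-0.76), Trib1 (-0.75), Synm (-0.69), Foxl2 (-0.69), Serpinf1 (-0.68), Xbp1 (-0.67) and Rbm14 (-0.64). With the same sign in both organs were Tbx3 (-0.91), Epor (0.76) and Cd79b (0.75).

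A single mouse stood far from the other 4 of its group in 9 of 120 groups looked at, where chance gives about 5%. The liver of D0 mouse 5 did so for Lime1 (-1.68, others -0.98 to -0.76), Adrb3 (2.13, others 3.67 to 4.25) and Fam193b (-1.53, others -0.38 to -0.22), each time toward the D2 livers. D2 mouse 15 stood apart in liver for Adrb3 (2.45, others 1.89 to 1.93) and in lung for Fam193b (-0.74, others -1.42 to -1.33). The others were Kifc2 in the liver of D2 mouse 14 (-0.42, others -0.69 to -0.63), Synm in the lung of D2 mouse 12 (4.19, others 3.78 to 3.90), and Foxl2 in the livers of D0 mouse 2 (-0.32, others 0.23 to 0.43) and D2 mouse 12 (0.07, others 0.62 to 0.77).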

How the results depend on the processing

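Of the 15 named genes higher in lung and lower in liver, 11 kept the call and all 15 kept opposite signs under each of 27 alternatives, 3 of which were added after seeing the data (the liver of D0 mouse 5 left out, array weights, and median centring with the slide block). Of the 12 in the other direction 1 kept the call and 2 kept opposite signs under each. Counts in order are probes called in the difference, with opposite signs, higher in lung, lower in lung, called in both organs, called in lung, and called in liver (393, 382, 305, 77, 19, 91 and 153 as reported). The counts that moved by over 1.5 times follow, and the cause was not tested. Agilent's processed signals gave 631, 615, 493, 122, 40, 137 and 414. Median centring gave 229, 229, 1 lower in lung, 5 in both, 50 in lung and 25 in liver. Cy5 alone with quantile normalization gave 5 in both and 43 in lung. No filter on dim probes gave 39 lower in lung and 148 in lung. With no minimum fold, 596, 578, 167 lower in lung, 37 in both, 322 in lung and 325 in liver were called. The slide block gave 32 in both, and the fit of 58 arrays 29 in both. With each organ in its own fit, 5 probes were called in liver. Without the liver of D0 mouse 5, 659, 633, 478, 155, 43 and, in liver, 268 were called. Array weights gave 648, 620, 183 lower in lung, 39 in both, 150 in lung and 233 in liver. Median centring with the slide block gave 5920, 5859, 5852, 7, 150, 963 and 536. The replicate block on the mouse gave 424 as a fixed and 490 as a random block, within 1.5 times of the count reported. Of the named genes, Xbp1, Serpinf1, Foxl2, Fkbp1a, Tbx3 and Epor lost the call under the fixed block and none did under the random one.

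Leaving out 1 mouse in both organs gave 228 to 594 in the difference, 225 to 572 with opposite signs, 197 to 429 higher in lung, 28 to 143 lower in lung, 4 to 39 in both, 42 to 96 in lung and 90 to 280 in liver. The lowest were without D2 mouse 13, or without D0 mouse 3 (both, lung) or D2 mouse 14 (liver), and the highest were without D0 mouse 5, or in lung without D0 mouse 1. For the cyclin L and CLK list leaving out a mouse gave 8 to 11 calls, and for the chaperones 0 to 3. Chaperone calls numbered 1 or 2 under the other loess normalizations, the processed signals, Cy5 alone, probes well above background on all arrays, either block, larger fits, array weights and without the liver of mouse 5, and 5 under median centring with the slide block, where the cyclin L list had 21. The D3 minus D1 difference gave 5 on processed signals and 0 under median centring (8 as reported), and forestomach gave 5 with Cy5 alone (0 as reported).

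Under median centring the difference turned positive for Trib1 (0.18), Tle3 (0.14), Rmrp (0.02), Xbp1 (0.20), Serpinf1 (0.23), Synm (0.13) and Foxl2 (0.20). Files held no mean signal, so normexp was run on median signals.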
